A study of Mus musculus with 15 samples.

Results

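The chemokine receptors examined here were 9 genes of the count table, chosen by symbol out of 56832 genes: Ccr1, Ccr2, Ccr7, Ccrl2, Cx3cr1, Cxcr4, Ackr2, Ackr3 and Ackr4. Bulk RNA-sequencing was carried out on bone marrow mesenchymal stromal cells (MSCs) that were cultured from the long bones of 16 week old mice and magnetically sorted as CD45- cells. The methods give a depletion of CD45+ blood cells, Ter119+ red cell precursors and CD31+ endothelial cells, or flow sorting, as the ways of enrichment. The mice were of C57BL/6J background and either wild type (TauT+/+) or global knockouts of the taurine transporter TauT (TauT-/-), which is encoded by Slc6a6. Of the 15 libraries, 8 carried a male label, with 4 of each genotype, and 7 a female label, with 3 TauT+/+ and 4 TauT-/-. The question was whether loss of TauT changed the receptors' RNA in these cultures. The labels do not say which libraries came from separate animals, and the p-values below measure the spread between these libraries, which may be partly technical.

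Chemokines are small secreted proteins that steer migrating cells, and their receptors pass the signal on through inhibitory G proteins. In most of the receptors an Asp-Arg-Tyr motif at the start of the second intracellular loop takes part in coupling to the G protein. The atypical receptors, among them Ackr2, Ackr3 and Ackr4, instead bind and remove chemokines from the surroundings. In bone marrow, Cxcl12 made by stromal cells holds Cxcr4+ blood-forming cells in place, while Ccr1, Ccr2 and Cx3cr1 are best known from monocytes and macrophages.

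The coding sequence at this motif is shown for each member, because the motif takes part in coupling to the G protein. The 27 bases run from 5′ to 3′ on the coding strand, were read from the mouse genome GRCm39 at the positions of the GENCODE M39 annotation, and cover 9 codons. Capitals mark the 3 codons at the place of Asp-Arg-Tyr.
Ccr1 (chr9:123764115-123764141, minus strand): GACAGATACctggccattgtccatgct
Ccr2 (chr9:123906169-123906195, plus strand): GATAGGTACttggctattgttcatgct
Ccr7 (chr11:99036438-99036464, minus strand): GACCGCTACgtagccatcgtccaggcc
Cx3cr1 (chr9:119880996-119881022, minus strand): GACCGGTACcttgccatcgtcctggcc
Cxcr4 (chr1:128517231-128517257, minus strand): GACCGGTACctcgctattgtccacgcc
Ccrl2 (chr9:110885077-110885103, minus strand): CAAGGATACagggtgttttcccaaggg
Ackr2 (chr9:121738044-121738070, plus strand): GACAAATACctggagattgtccacgct
Ackr3 (chr1:90141963-90141989, plus strand): GACCGCTATctctccatcacctacttc
Ackr4 (chr9:103976514-103976540, minus strand): GACAGATATtgggcaattaccaaagcc

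The capitals spelled Asp-Arg-Tyr in 7 of the 9 genes, and did not in Ccrl2 and Ackr2. Ackr3 and Ackr4, which are classed as atypical, kept the motif. Over the 27 bases, Ccr2, Cxcr4, Ccr7 and Cx3cr1 shared 22, 21, 20 and 20 bases with Ccr1. Ackr2 shared 23, Ackr4 shared 18, and Ccrl2 and Ackr3 each shared 14. In the same annotation 6 of the 9 genes lay on chromosome 9, 2 on chromosome 1 and 1 on chromosome 11, and all 9 were protein coding. Ccr1 spanned chr9:123762161-123768734 on the minus strand and Ccr2 chr9:123901982-123913594 on the plus strand.

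Some of these genes share sequence with others. Reads were 150 bases long, and the longest stretch that the main transcript of Ccr1 shared letter for letter with another chemokine receptor was 47 bases, with Ccr3. For the members other than Ccr1 and Ccr2 it was 16 to 24 bases. Ackr4 overlapped exons of Acad11 on the opposite strand over 1663 bases, and Ccr7 and Cx3cr1 overlapped exons of a long non-coding RNA over 133 and 78 bases. The library kit is not described as keeping the strand, so reads in these overlaps are uncertain.

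The libraries differed in ways that bear on every value below. Total counts were 69764291 to 101575071 in the 8 male-labelled libraries and 12761107 to 20781070 in the 7 female-labelled libraries, so labelled sex and depth cannot be told apart. Slc6a6 had 592 to 2591 CPM (reads of a gene after scaling for library size) in TauT+/+ and 401 to 1521 CPM in TauT-/- libraries, with a log2 fold change of −0.97 (standard error, SE, 0.36, edgeR adjusted p = 0.125), and the genotypes overlapped. The counts cover the whole gene, and the deleted part is not given in the sources used here. The sex-linked genes Xist and Ddx3y went against the label in the libraries labelled TauT+/+ male 1, TauT-/- male 1 and TauT+/+ female 3. The pairs TauT-/- male 1 and female 1, and TauT+/+ male 1 and female 1, were nearly identical, with a spread of the log2 ratio per gene of 0.0978 and 0.108, against 0.263 for the next closest pair. All libraries were kept as labelled. Calls are also given for 13 libraries, with the male-labelled or the female-labelled members of these pairs left out, and for the 12 libraries in which sex-linked genes and label agreed.

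Library sizes were normalized by TMM, a scaling that trims away the most extreme genes, before CPM were computed. The genotypes were compared with edgeR's quasi-likelihood test on the counts with labelled sex in the model, over the 17204 genes with enough reads to be tested (edgeR's filterByExpr). All p-values were adjusted together by the method of Benjamini and Hochberg. A gene was called at an adjusted p under 0.05. Among the 9 receptors 7 passed the filter, and Ccr7 and Ackr2 did not. Ccr1 was the only member called, and it was higher in TauT-/- MSCs, where 0.546% of all tested genes were called higher. No member was called lower, against 0.75% of all genes. With DESeq2, the tool used in the study, Ccr1 and Cxcr4 were called higher, against 5.53% of genes, and no member was called lower, against 6.5%. The log2 fold change was above 0 for 6 of the 7 tested members with a median of 1.68, while 48.3% of all tested genes were above 0 and their median was −0.02. These figures describe the 7 members that passed the filter, which can favour genes that are high in 1 genotype.

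**Figure D1:**
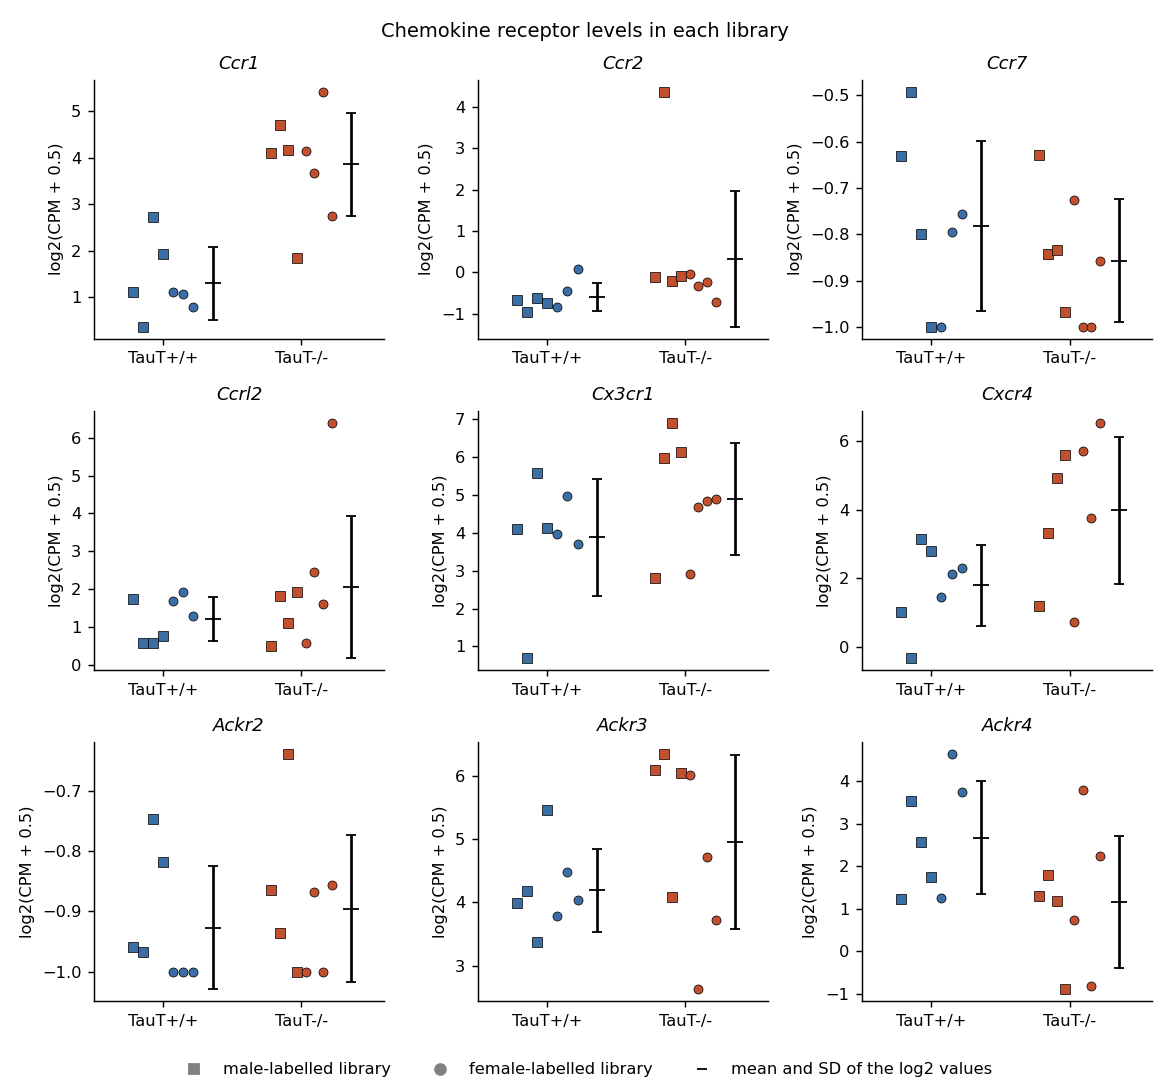
Level of each of the 9 receptors in every library as log2(CPM + 0.5), with TauT+/+ libraries in blue, TauT-/- in orange, squares for male-labelled and circles for female-labelled libraries, and the black mark and bar giving the mean and SD of the log2 values. For Ccr1, 7 of the 8 TauT-/- libraries lie above the highest TauT+/+ library, and single high libraries stand out for Ccr2 and Ccrl2.

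Ccr1, the receptor for Ccl3, Ccl5 and Ccl9 on monocytes, macrophages and osteoclast precursors, rose from 2.35 ± 1.85 CPM (SD, n = 7) in wild-type to 17.7 ± 12.3 CPM (SD, n = 8) in TauT-/- MSCs. The male-labelled TauT+/+ libraries 1 to 4 held 1.66, 0.790, 6.13 and 3.35 CPM, and the female-labelled libraries 1 to 3 held 1.67, 1.61 and 1.24 CPM. The male-labelled TauT-/- libraries 1 to 4 held 16.6, 25.8, 17.6 and 3.10 CPM, and the female-labelled ones 17.3, 12.3, 42.4 and 6.26 CPM. All 8 TauT-/- libraries were above the TauT+/+ median, and 7 were above the highest TauT+/+ library. The exception was TauT-/- male 4, which was within the TauT+/+ range, so the genotypes overlapped, as they did for every member. Genotypes without overlap were seen for 0.692% of tested genes in the higher and 0.436% in the lower direction.

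The log2 fold change of Ccr1 was 2.96 (SE 0.58, edgeR adjusted p = 0.0352), and 39 of the 17204 tested genes (0.227%) had a value at least as high. DESeq2 gave 2.99 (adjusted p = 5.47e-06). The size of the difference was similar without the libraries in doubt, but the edgeR call was not kept. With 13 libraries the log2 fold change was 2.93 (edgeR adjusted p = 0.0771) without the male-labelled members of the near-identical pairs and 2.91 (adjusted p = 0.102) without the female-labelled ones, and 0.0139% and 0.0399% of all genes were called. With 12 libraries it was 2.80 (edgeR adjusted p = 0.155), and 0% of genes were called, while 3115 had an unadjusted p under 0.05. In the same sets, an alternative chosen after the data were seen, DESeq2 called Ccr1 and Cxcr4 higher each time, with an adjusted p of 0.000158, 0.000311 and 0.00218 for Ccr1, and called 9.89%, 8.82% and 6.14% of all genes. With the replicate number as a block, the log2 fold change of Ccr1 was 3.08 (edgeR adjusted p = 0.0610) and it was not called.

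Fits that each omitted 1 library gave a log2 fold change of 2.64 to 3.34 for Ccr1, and it was called in 7 of the 15 fits. The call was lost without TauT+/+ male 1 (edgeR adjusted p = 0.0518), TauT+/+ male 2 (0.0568), TauT+/+ female 1 (0.0866), TauT+/+ female 2 (0.0966) or TauT+/+ female 3 (0.0751). It was also lost without TauT-/- male 1 (edgeR adjusted p = 0.0533), TauT-/- male 3 (0.0519) or TauT-/- female 3 (0.0577). The direction was the same in all 15 fits.

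Cxcr4, the receptor for Cxcl12, was at 3.87 ± 2.82 CPM (SD, n = 7) in wild-type and 31.1 ± 31.7 CPM (SD, n = 8) in TauT-/- MSCs. The male-labelled TauT+/+ libraries 1 to 4 held 1.53, 0.289, 8.33 and 6.43 CPM, and the female-labelled libraries 2.24, 3.82 and 4.42 CPM. The male-labelled TauT-/- libraries 1 to 4 held 1.77, 9.55, 30.1 and 48.1 CPM, and the female-labelled ones 1.15, 52.4, 13.1 and 92.4 CPM. Thus 6 of the 8 TauT-/- libraries were above the highest TauT+/+ library, and the other 2, the near-identical TauT-/- male 1 and female 1, were below the TauT+/+ median. The log2 fold change was 2.91 (SE 0.91, edgeR adjusted p = 0.0902), and DESeq2 gave 2.94 (adjusted p = 0.00512). With edgeR Cxcr4 was not called in any of the 15 fits that left out 1 library (adjusted p 0.0551 to 0.164), nor with 13 or 12 libraries (0.105 to 0.176), where DESeq2 gave adjusted p-values of 0.00484 to 0.0158.

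Cx3cr1, the receptor for the membrane-bound chemokine Cx3cl1 and a marker of resident macrophages and monocytes, ranged from 1.11 to 47.1 CPM (median 16.6, n = 7) in TauT+/+ and from 6.45 to 119 CPM (median 28.6, n = 8) in TauT-/- libraries. The highest values were those of TauT-/- male 3 (119 CPM), male 4 (69.3 CPM) and male 2 (61.9 CPM), and the lowest of the TauT-/- libraries were again male 1 and female 1, with 6.45 and 6.97 CPM. A log2 fold change of 0.97 (SE 0.67, edgeR adjusted p = 0.390) did not pass the threshold.

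Ccr2, the receptor for Ccl2 on inflammatory monocytes, was near the limit of detection in 14 libraries. It had 0.0111 to 0.553 CPM (median 0.131) in TauT+/+ libraries, from 1 to 14 reads each. In TauT-/- libraries it had 0.104 to 20.3 CPM (median 0.398), and the highest value, from 1765 reads in TauT-/- male 2, held 84.7% of the summed CPM of all 15 libraries. With that library the log2 fold change was 3.35 (SE 1.51, edgeR adjusted p = 0.196) and without it 1.17. DESeq2 gave no adjusted p for Ccr2.

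Ccrl2, which binds the attractant chemerin and presents it to neighbouring cells without signalling itself, also rested on 1 library. It had 0.990 to 3.29 CPM (median 1.93) in TauT+/+ and 0.920 to 83.8 CPM (median 2.81) in TauT-/- libraries. TauT-/- female 4 held 72.7% of the summed CPM, and the next highest library, TauT-/- female 2, had 4.99 CPM. Its log2 fold change was 1.68 (SE 0.90, edgeR adjusted p = 0.269) with TauT-/- female 4 and 0.38 without it.

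Ackr3, an atypical receptor that removes Cxcl12 and also binds adrenomedullin, ranged from 9.81 to 43.5 CPM (median 15.9) in TauT+/+ and from 5.66 to 80.6 CPM (median 44.9) in TauT-/- libraries. TauT-/- male 1, male 2, male 4 and female 1 lay between 64.1 and 80.6 CPM, above every TauT+/+ library, while TauT-/- female 2 with 5.66 CPM was below all of them. Its log2 fold change was 1.07 (SE 0.49, edgeR adjusted p = 0.202).

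Ackr4, which removes Ccl19, Ccl21 and Ccl25, was the only tested member with a value below 0. It had 1.85 to 24.5 CPM (median 5.42) in TauT+/+ and 0.0341 to 13.4 CPM (median 1.87) in TauT-/- libraries, and 4 of the 8 TauT-/- libraries were below the lowest TauT+/+ library. TauT-/- male 4 and female 3 had only 3 reads and 1 read, and TauT-/- female 2 with 13.4 CPM was above the TauT+/+ median. The log2 fold change of −1.56 (SE 0.84, edgeR adjusted p = 0.277) did not pass the threshold, and it shares the uncertainty of the overlap with Acad11.

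The remaining members were hardly detected. Ccr7, the receptor for Ccl19 and Ccl21 on migrating dendritic cells and T cells, had 66 reads in all 15 libraries together, with 0 to 0.211 CPM in TauT+/+ and 0 to 0.147 CPM in TauT-/- libraries. Ackr2, which removes inflammatory CC chemokines, had 38 reads in all, with 0 to 0.0958 CPM in TauT+/+ and 0 to 0.143 CPM in TauT-/- libraries. A count of 0, found in 4 libraries for Ccr7 and 6 for Ackr2, allows up to 3 reads, which is 0.0403 to 0.208 CPM for Ccr7 and 0.0341 to 0.2295 CPM for Ackr2, counting error only. The difference in mean log2(CPM + 0.5), TauT-/- minus TauT+/+, was −0.07 for Ccr7 (exact permutation test within the sex labels, two-sided, p = 0.354) and 0.03 for Ackr2 (p = 0.576), with an adjusted p of 0.576 for each over these 2 genes. No difference was detectable at this depth.

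Levels of different receptors can be compared only per length of transcript, and for this CPM were divided by the kilobases of exon in GENCODE M39. In TauT+/+ libraries the median level fell in the order Cx3cr1 (3.56 CPM per kb), Cxcr4 (2.10), Ackr3 (1.96), Ccrl2 (0.739), Ackr4 (0.663), Ccr1 (0.585), Ccr7 (0.0385), Ccr2 (0.0194) and Ackr2 (0.00242). Within a library, the log2 ratio of neighbours in this order was larger than its SD over the 7 libraries for Cx3cr1 over Cxcr4, Ackr3 over Ccrl2 and Ccr1 over Ccr7, and not for the other 5 pairs of neighbours. In TauT-/- libraries the order was Cxcr4 (11.8 CPM per kb), Cx3cr1 (6.15), Ccr1 (5.99), Ackr3 (5.54), Ccrl2 (1.07), Ackr4 (0.228), Ccr2 (0.0588), Ccr7 (0.0276) and Ackr2 (0.00771). There the top 4 receptors did not differ from their neighbours beyond the spread over the 8 libraries, and Ccrl2 over Ackr4 was the only step that did. Ccr1 was sixth in TauT+/+ and the third in TauT-/- MSCs, and these ranks are a description with no test.

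**Figure D2:**
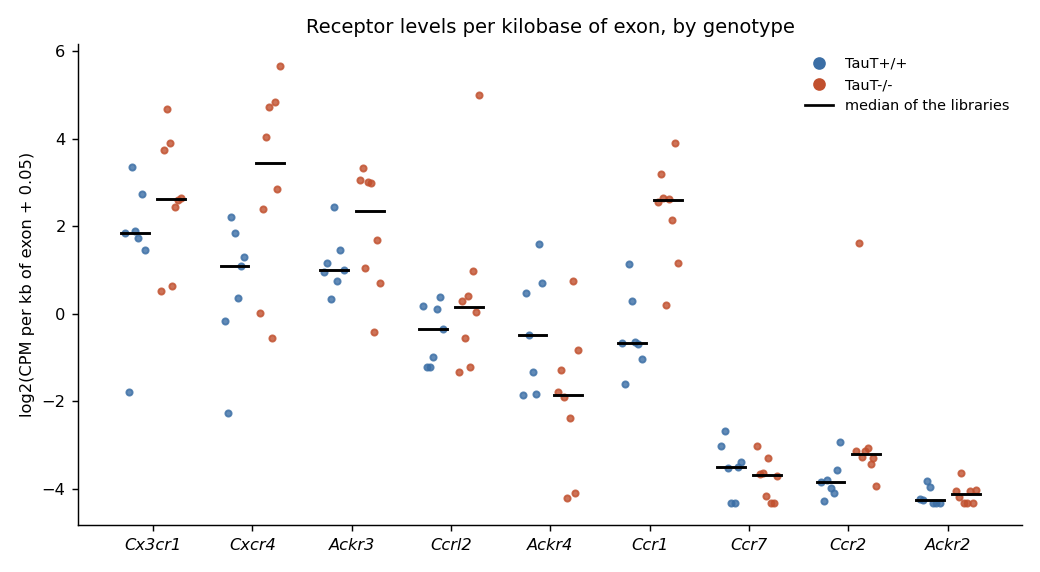
Level of each receptor as log2(CPM per kb of exon + 0.05) in TauT+/+ (blue) and TauT-/- (orange) libraries, ordered by the TauT+/+ median, with black lines for the medians. Ccr7, Ccr2 and Ackr2 lie lowest, except for TauT-/- male 2 in Ccr2, and the median of Ccr1 is 0.585 CPM per kb in TauT+/+ and 5.99 in TauT-/- libraries.

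Within a sex label, edgeR with 1 term per group called none of 18263 genes, neither in male-labelled nor in female-labelled libraries, while 1589 and 2702 genes had an unadjusted p under 0.05. Ccr1 had a log2 fold change of 2.43 (SE 0.72, edgeR adjusted p = 0.560) in male-labelled and 3.74 (SE 0.88, adjusted p = 0.245) in female-labelled libraries. Cxcr4 had 2.48 and 3.56, Cx3cr1 had 1.69 and 0.25, Ackr3 had 1.42 and 0.69, and Ackr4 had −1.65 and −1.42. These 5 genes had the same sign under both labels, as did Ccrl2 and Ccr2, but a sign says little where the value is smaller than its SE. This was so in female-labelled libraries for Cx3cr1 (SE 0.95), Ackr3 (SE 0.72) and Ccr2 (SE 1.45). In male-labelled libraries it was so for Ccrl2 (SE 1.02). Ccrl2 had 0.60 and 3.20, the latter with TauT-/- female 4. Ccr2 had 5.81 in male-labelled libraries, which include TauT-/- male 2, and 0.09 in female-labelled ones, and the labels differed by 5.71 (SE 1.94, edgeR adjusted p = 1.00). No gene was called for a difference between the labels, and 295 had an unadjusted p under 0.05.

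The cultures were labelled as MSCs, and stromal genes were abundant in them. Of 14 MSC marker genes all were tested, and 4 were above and 10 below 0 with a median log2 fold change of −0.44. None was called by edgeR, and Pdgfra and Vcam1 were called lower by DESeq2, against 6.5% of all genes. With 13 or 12 libraries DESeq2 called Vcam1 lower in all 3 sets and Pdgfra in 1 of them, and edgeR called neither. Col1a1, a collagen of bone matrix, was at 12883 ± 3087 CPM (SD, n = 7) in TauT+/+ MSCs and 8043 ± 6649 CPM (SD, n = 8) without TauT. Markers of blood cells were also present in every library. Ptprc, which encodes the CD45 protein against which the cells were depleted, was at 27.9 to 179 CPM in TauT+/+ and 114 to 370 CPM in TauT-/- libraries.

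Macrophage markers moved with genotype. All 18 genes of this list were tested and none was at 0 throughout. Of these, 17 were above 0 with a median log2 fold change of 0.88, against 48.3% of all tested genes above 0. Lyz2, Csf1r, Adgre1 and C1qa were the most abundant of them. Lyz2 had a mean of 5927 CPM over the 15 libraries, against 738 CPM for Csf1r. The summed level of the list, used below, therefore rests to a large part on Lyz2. Cd68, a lysosomal protein of macrophages, was called higher by edgeR (log2 fold change 1.46, SE 0.33, adjusted p = 0.0445), and DESeq2 called 7 genes higher, Cd68, Cd14, C1qa, C1qb, Itgam, Fcgr1 and Fcer1g. Of all genes 0.546% were called higher by edgeR and 5.53% by DESeq2. Without the libraries in doubt edgeR called no gene of the list (adjusted p of Cd68 0.0718 and 0.0974 with 13 libraries and 0.152 with 12), and DESeq2 called 10, 7 and 7 higher. The summed level of the list was 1386 to 9564 CPM (median 8063) in TauT+/+ and 6548 to 20290 CPM (median 15116) in TauT-/- libraries. The lowest library was TauT+/+ male 2, which was also the lowest for Ccr1, Ccr2, Cx3cr1 and Cxcr4, and the lowest of the TauT-/- libraries were male 1 and female 1. The log2 sums averaged 12.58 ± 0.98 (SD, n = 7) in wild-type and 13.64 ± 0.62 (SD, n = 8) in TauT-/- libraries, a difference of 1.06 (exact permutation test within the sex labels, two-sided, p = 0.0114). It was 0.71 without TauT+/+ male 2 (exact permutation p = 0.0335), 1.27 and 1.26 with 13 libraries (0.01 and 0.00571) and 1.41 with 12 (0.01). In bulk RNA, more cells of a type and more of its RNA per cell cannot be told apart.

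Across the 15 libraries some receptors followed the macrophage sum and others did not. The permutations ran over all libraries without regard to genotype. The sum itself differed between the genotypes, so a shared genotype difference can enter these correlations and their p-values. Correlations within a genotype were not tested. The relation was closest for Cxcr4 (Pearson's r = 0.835, Spearman's rho = 0.882, permutation p adjusted over the 9 members 0.00018 and 0.00054). It was also high for Cx3cr1 (r = 0.798, rho = 0.643, adjusted permutation p = 0.00333 and 0.0359). Without the 2 libraries farthest from the median of the sum, TauT+/+ male 2 and TauT-/- female 4, r was 0.838 for Cxcr4 and 0.642 for Cx3cr1. Within male-labelled and female-labelled libraries it was 0.842 and 0.969 for Cxcr4, and 0.939 and 0.617 for Cx3cr1. For Ccr1 r was 0.498 and rho 0.436 (adjusted permutation p = 0.109 and 0.190), and r was 0.380 without those 2 libraries.

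Ackr3 and Ackr4 had an r of −0.167 and −0.290 with the sum (adjusted permutation p = 0.571 and 0.447), and Ccr2 had 0.179 (0.472). Ccrl2 had an r of 0.543 (adjusted permutation p = 0.119) and a rho of 0.639 (0.0359). Ccr7, with few reads, had an r of −0.650 (adjusted permutation p = 0.0229) and a rho of −0.539 (0.0920), and r was −0.420 without the 2 farthest libraries. The 2 near-identical pairs are not independent, and with 13 libraries r was 0.855 and 0.861 for Cxcr4 and 0.7996 and 0.805 for Cx3cr1.

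**Figure D3:**
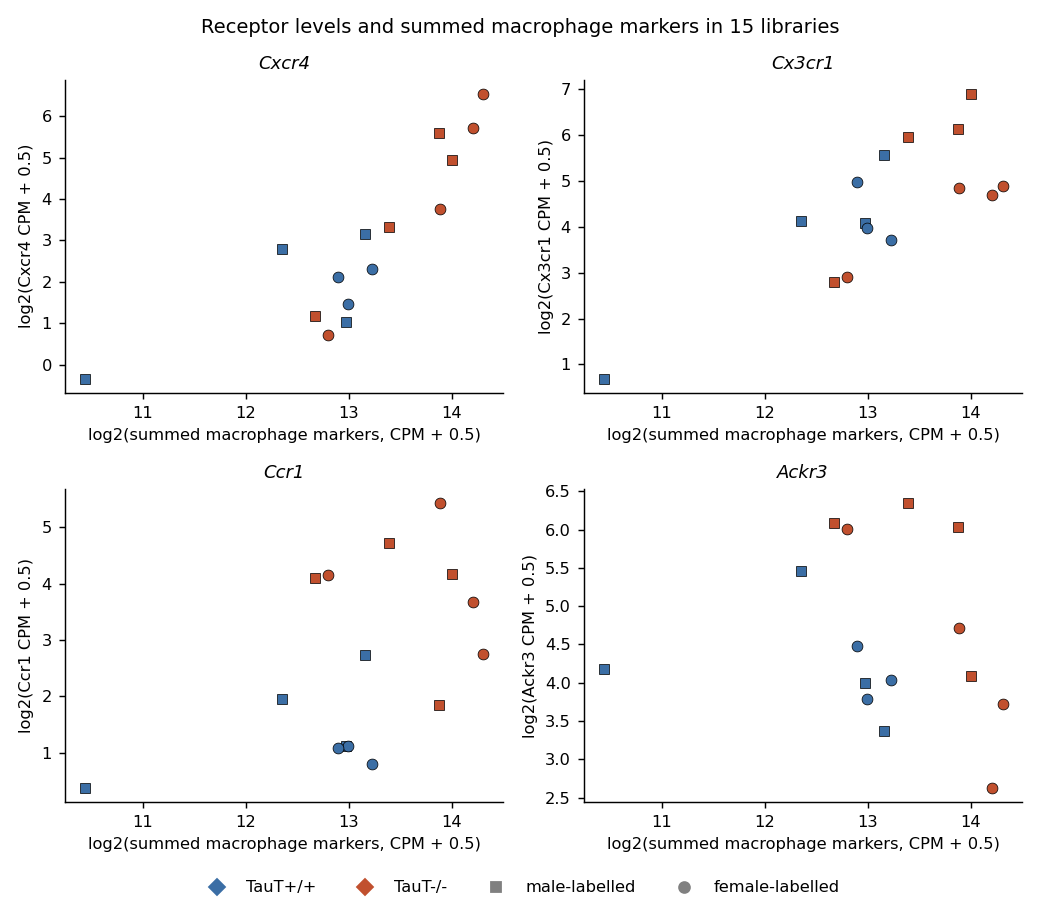
Levels of Cxcr4, Cx3cr1, Ccr1 and Ackr3 as log2(CPM + 0.5) against the log2 of the summed CPM of 18 macrophage markers in the 15 libraries, coloured by genotype and shaped by sex label. Cxcr4 and Cx3cr1 rise with the marker sum (r = 0.835 and 0.798), and no trend is seen for Ackr3 (r = −0.167). The marker sums of TauT+/+ libraries span 1386 to 9564 CPM. Of the TauT-/- libraries only the near-identical male 1 and female 1 (6548 and 7107 CPM) lie within that span. The genotypes can therefore hardly be compared for Ccr1 at similar sums.

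The receptors known from leukocytes were also set against the macrophage sum within each library. The log2 ratio of Ccr1 to the sum was −11.3 ± 0.93 (SD, n = 7) in wild-type and −9.79 ± 1.44 (SD, n = 8) in TauT-/- libraries, a difference of 1.49 (exact permutation test within the sex labels, two-sided, p = 0.0384, adjusted p = 0.0959 over 5 receptors). It was 1.21 and 1.22 with 13 libraries (adjusted exact permutation p = 0.286 and 0.271) and 0.97 with 12 (0.525). Each of the 15 libraries was also left out in turn. Only without TauT-/- male 4, the TauT-/- library within the TauT+/+ range for Ccr1, did the ratio pass (1.81, adjusted exact permutation p = 0.0490). The other sets gave an adjusted exact permutation p of 0.0893 to 0.184. The differences were −0.23 for Ccrl2 and −0.06 for Cx3cr1 (adjusted exact permutation p = 0.903 for each). Ccr2 and Ccr7 were so low that their ratios followed the pseudocount and the macrophage sum, and nothing is read from them.

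With the mean log2 level of the macrophage markers as a term in the edgeR fit, the log2 fold change of Ccr1 was 2.703 (SE 0.68, adjusted p = 0.212), that of Cxcr4 was 0.55 (1.18, 0.899) and that of Cx3cr1 turned to −0.85 (0.57, 0.619). That of Ackr3 was 1.54 (SE 0.56, adjusted p = 0.344) and that of Ackr4 −1.07 (1.10, 0.768). No gene of 19164 was called in this fit, and 2055 had an unadjusted p under 0.05. The marker level itself differed between the genotypes, so this fit takes up part of the genotype difference of every gene that goes with it.

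**Figure D4:**
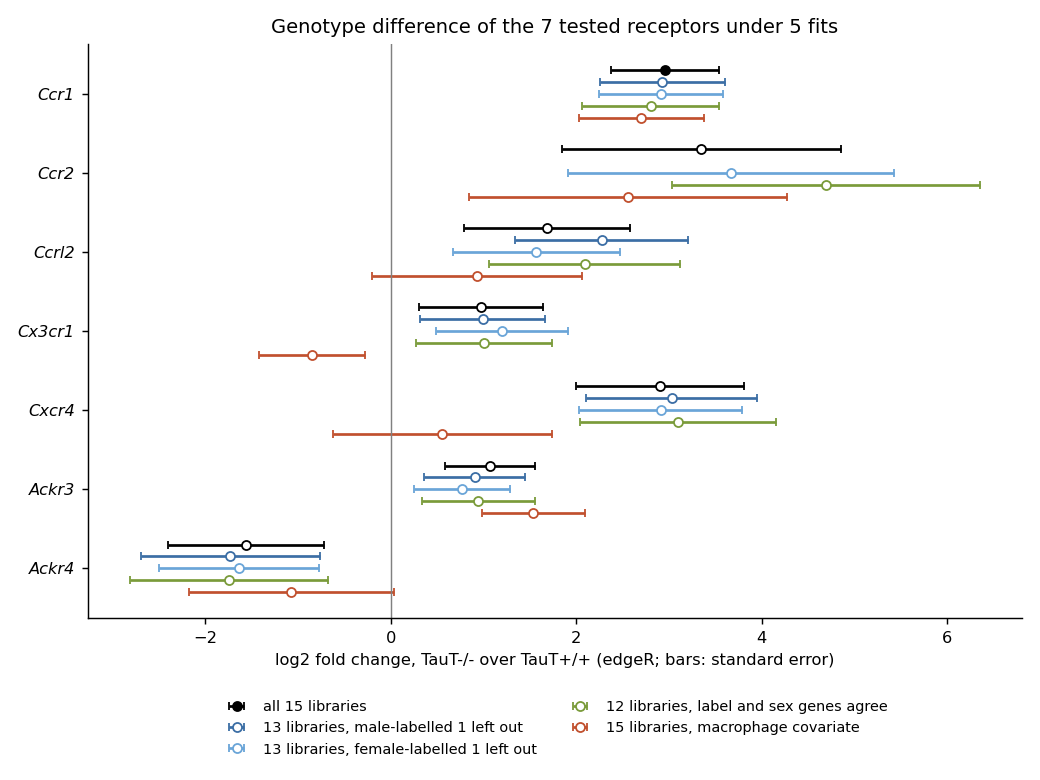
Log2 fold change of the 7 tested receptors in TauT-/- over TauT+/+ MSCs with its standard error from 5 edgeR fits, with a filled symbol where the adjusted p was under 0.05. Ccr1 lies between 2.703 and 2.96 in all 5 and is called only in the fit of all 15 libraries without the macrophage term, while Cxcr4 goes from 2.91 to 0.55 and Cx3cr1 from 0.97 to −0.85 with the macrophage term, and Ccr2 was under the filter without the male-labelled members of the near-identical pairs.

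Markers of leukocytes in general, and of other cell types that carry chemokine receptors, were also examined. All 5 pan-leukocyte markers were above 0 with a median log2 fold change of 0.91. Their summed level was 187 to 1161 CPM in TauT+/+ and 857 to 2532 CPM in TauT-/- libraries. DESeq2 called Laptm5 and Cd53 higher, against 5.53% of all genes, while edgeR called none. With 13 or 12 libraries DESeq2 called 2 to 4 of the 5 higher. Of 8 T and NK cell markers, 4 were at 0 in every library, among them Cd3e and Cd8a, and the summed level of the list was at most 0.777 CPM in TauT+/+ and 2.16 CPM in TauT-/- libraries. The neutrophil list had 3 of 8 genes tested (median 0.79), the dendritic cell list 3 of 7 (median 0.82), the B cell list 1 of 6 (−0.68), the osteoclast list 5 of 6 (0.60) and the erythroid list 1 of 5 (−0.31), and none of these genes was called by either tool with all 15 libraries. With 13 libraries DESeq2 called Itgax of the dendritic cell list higher. Of 5 tested endothelial markers, 4 were above and 1 below 0 (median 0.61). Pecam1, Cdh5, Tek and Vwf had edgeR log2 fold changes of −0.19, 0.09, 0.61 and 1.32 and were not called by either tool. Only Kdr was called higher by DESeq2 (log2 fold change 2.16, adjusted p = 0.000807), also with 13 or 12 libraries (0.000185 to 0.00492), while edgeR did not call it. The part of any of these cells, macrophages included, in the receptor values was not tested.

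Of 16 further chemokine receptors in the table, 4 passed the filter, none was called by edgeR or DESeq2, and 1 had an unadjusted edgeR p under 0.05. Cxcr3, Cxcr6 and Ccr3 had log2 fold changes of 0.73, −2.29 and 0.14 (edgeR adjusted p = 0.429, 0.295 and 0.949). Ccr6 and Ccr8 had no read in any library. Of the signalling receptors for chemerin, Cmklr1 was at 10.5 ± 6.93 CPM (SD, n = 7) in wild-type and 13.4 ± 7.17 CPM (SD, n = 8) in TauT-/- MSCs (edgeR adjusted p = 0.654), and Gpr1 was at most 1.10 CPM in any library (0.313).

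Among 23 chemokines and other ligands of these receptors, 18 were tested, 13 were above and 5 below 0, and the median log2 fold change was 0.34. EdgeR called none of them, although 3 had an unadjusted p under 0.05. DESeq2 called none higher, against 5.53% of all genes, and 3 lower, against 6.5%. These were Cx3cl1, the ligand of Cx3cr1 (72.9 ± 28.5 CPM in wild-type and 34.0 ± 13.6 CPM in TauT-/- MSCs, SD, n = 7 and 8), Rarres2, the precursor of chemerin (120 ± 90.0 and 28.5 ± 38.5 CPM), and Ccl24, a ligand of Ccr3 (0.586 ± 0.518 and 0.0848 ± 0.0768 CPM). Their log2 fold changes were −1.11, −2.42 and −3.10 (edgeR adjusted p = 0.0513, 0.101 and 0.0719). With 13 or 12 libraries DESeq2 called Cx3cl1 lower in all 3 sets, Ccl24 in 1 and Rarres2 in none. It also called Ccl3, a ligand of Ccr1, higher in 2 of the 3 sets.

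Cxcl12, the ligand of Cxcr4 and Ackr3, was by far the most abundant ligand, with 835 to 23382 CPM in TauT+/+ and 86.5 to 14290 CPM in TauT-/- libraries, and its log2 fold change of −1.45 (SE 1.03, edgeR adjusted p = 0.407) was within the spread. Mif, Ccl2 and the adrenomedullin gene Adm followed, at log2 fold changes of 0.33, 0.36 and 0.55 (edgeR adjusted p = 0.315, 0.634 and 0.444). No ligand of Ccr1 was called by either tool with all 15 libraries.

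Of 28 genes that pass on or end the receptors' signal, 27 were tested, 24 of them were above 0, and the median log2 fold change was 0.60. Of all tested genes 48.3% were above 0. Plcb2, a phospholipase C of blood cells that is switched on by chemokine receptors, was called higher by edgeR, against 0.546% of all genes. It was at 2.14 to 15.2 CPM in TauT+/+ and 17.2 to 43.0 CPM in TauT-/- libraries without overlap (log2 fold change 1.54, SE 0.34, adjusted p = 0.0441). Genotypes without overlap in this direction were seen for 0.692% of all tested genes. Without the libraries in doubt edgeR did not call Plcb2 (adjusted p 0.0660 and 0.0974 with 13 libraries and 0.137 with 12), and DESeq2 did each time. DESeq2 called 7 of the list higher, against 5.53% of all genes. Beside Plcb2 they were Gnai2, an inhibitory G protein subunit, and Rgs1, which shortens its signal. The others were Pik3cg and Pik3r5, the subunits of a phosphoinositide kinase, and Dock2 and Elmo1, which activate Rac in migrating cells. Beside Plcb2, the edgeR log2 fold changes of these genes were 0.31 to 1.39. Rgs4, another regulator of G protein signalling, was called lower by DESeq2 (edgeR log2 fold change −1.68, adjusted p = 0.123), against 6.5% of all genes. The 4 most abundant genes of the list were Gnai2, Gnb1, Rac2 and Arrb1, and the last 3 were not called. The pan-leukocyte and macrophage lists had median log2 fold changes of 0.91 and 0.88. The part of such cells in the values of the signalling genes was not tested.

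The members' patterns over the 15 libraries can also be described without the genotypes. Among the 21 pairs of tested members, Cx3cr1 and Cxcr4 had the highest Spearman correlation (rho = 0.746), followed by Ccrl2 and Cxcr4 (0.600). Ccr1 had a rho of 0.461 with Ccr2, 0.429 with Cxcr4 and 0.300 with Ackr3, and Ackr3 had −0.225 with Cxcr4. The near-identical TauT-/- male 1 and female 1 libraries show this division: they had the lowest Cx3cr1 and Cxcr4 of the TauT-/- libraries, held 16.6 and 17.3 CPM of Ccr1, near its median, and were among the 4 highest for Ackr3. TauT-/- male 4 and female 4, in turn, were the lowest of the TauT-/- libraries for Ccr1 and among the 3 highest for Cxcr4.

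The tested genes whose levels over the 15 libraries were most like each member were ranked by Spearman's rho. For Ccr1 they were Cdca4 (0.889), Spdl1 (0.886) and Mcoln3 (0.885), and for Cxcr4 Il6ra (0.957), Mia2 (0.950) and Pwwp2b (0.946). For Cx3cr1 they were the chemerin receptor gene Cmklr1 (0.964), Sike1 (0.929) and Cd101 (0.911). For Ccr2 they were Wscd2 (0.857), Ankle1 (0.832) and Ppp1r14b (0.818), and for Ccrl2 Ifi207 (0.893), ENSMUSG00000121066 (0.889) and Dedd2 (0.886). For Ackr3 they were Apeh (0.882), Lgalsl (0.871) and Medag (0.864), and for Ackr4 AI987944 (0.904), Sp6 (0.896) and Colq (0.879). Each is the highest of 17204 genes over libraries that share genotype, depth and 2 near-identical pairs, and is given as a description.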

How the data were processed

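The authors deposited raw, whole-number counts of 56832 genes, and 0 columns lacked a sample. The authors amplified full-length cDNA from poly(A) RNA, filtered reads with fastp 0.23.1, aligned them with STAR 2.7.9a to GRCm39 (GENCODE M31), and used featureCounts of Subread 2.0.1 in its strand-specific mode. Their test was DESeq2 with terms for sex and condition.

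Here the counts were fitted with edgeR 4.0.16 in R 4.3.3 (TMM, filterByExpr, quasi-likelihood test, labelled sex and genotype, biological coefficient of variation 0.482). DESeq2 1.42.0, run on genes with any count, and limma 3.58.1 (voom) were alternatives. Permutation tests and correlations (100000 resamples) used log2(CPM + 0.5) in Python 3.11.15 with SciPy 1.17.1. The statistics were first tested on simulated counts. The members and the gene lists were chosen with earlier results of these data known. Named from the other lists were the genes called by edgeR or DESeq2 and the 4 with the highest mean CPM, and for each tested member the 3 most similar genes. Genes named for a shared or overlapping sequence, and single markers such as Cd3e, were chosen after their values were seen. Sequences and positions were read from GRCm39 with GENCODE M39, which is later than the authors' annotation of that build, and in which all 9 members had a match by symbol. 1 read was worth 0.0102 to 0.0146 CPM in male-labelled and 0.0461 to 0.0765 CPM in female-labelled libraries, which sets the precision of low genes. Not every gene of the lists is reported here by name. Alternatives changed the normalization, filter, test, covariates, pseudocount and libraries. Deviations of same-numbered libraries of both genotypes correlated at 0.171 to 0.636 in the 4 male-labelled pairs and at 0.310, 0.0979 and −0.0348 in the 3 female-labelled pairs. The labels do not say what a number marks, and not every pair exceeded 0.1, so the main test has no replicate block, and the blocked value stands beside Ccr1.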

Additional observations from a re-analysis of the deposited data

Results flagged for a closer look

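Within the groups of 4 libraries, a library was looked at again where its gap to the nearest other library took up more of the group's whole range than Dixon's 95% critical value. Gaps and ranges were taken on log2(CPM + 0.5). Of 30 groups tested over the members and the marker sum, 4 passed, where chance gives about 1.5. Ccr2 in TauT-/- male 2 had a gap of 0.977 of the range of the male-labelled TauT-/- libraries, at 20.3 CPM against 0.366 to 0.432 CPM in the other 3. Ccrl2 in TauT+/+ male 1 had 0.840 of the range, at 2.85 CPM against 0.990 to 1.20 CPM. Cx3cr1 in TauT-/- female 1 had 0.899, at 6.97 CPM against 25.2 to 29.1 CPM. Ackr3 in TauT-/- male 3 had 0.864, at 16.5 CPM against 65.1 to 80.6 CPM. TauT+/+ male 1 and TauT-/- female 1 each belong to a near-identical pair. On the CPM scale, looked at after the data were seen, the shares were 0.997, 0.889, 0.826 and 0.758, of which the last 2 no longer passed, and Ccrl2 in TauT-/- female 4 passed with 0.952 (0.677 on the log2 scale), at 83.8 CPM against 0.995 to 4.99 CPM. The cause of these values was not tested.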

How the results depend on the processing

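Of 31 alternatives for the log2 fold change of Ccr1, all kept its direction and 15 lost the call. It was 3.08 with the replicate number as a block (adjusted p = 0.0610), 2.42 in male-labelled libraries alone, 3.72 in female-labelled libraries alone, 2.703 with the macrophage term, 2.93 and 2.91 with 13 libraries and 2.80 with 12, and members called were 0 in each of these. DESeq2 called 2 members, also with 13 or 12 libraries. Leaving out 1 library gave 2.64 to 3.34 for Ccr1 and 0 or 1 member called. Against 223 genes called in all, DESeq2 gave 2104 (1697, 1474 and 1005 with 13, 13 and 12 libraries, added after the data were seen), voom 1319, no filter 74 and no sex term 471. The replicate block gave 132, 13 libraries 2 (male-labelled 1 left out) and 7 (female-labelled 1 left out), and the 12 libraries, either sex label alone and the macrophage term 0. Leaving out 1 library gave 12 (without TauT+/+ female 2) to 1255 (without TauT+/+ male 3). Whether shared numbers pair the libraries is not given, and the block called none of Ccr1, Cd68 and Plcb2 (adjusted p = 0.0610, 0.0704 and 0.0689). The direction turned for Cx3cr1 with the macrophage term (−0.85). It turned for the ratio to macrophage markers of Ccr2 with a pseudocount of 0.1 (0.49) and of Cx3cr1 with 13 libraries (0.0744 and 0.0539). In fits without 1 library this ratio, which for Ccr2 depends on the pseudocount, ran from −0.75 to 0.16 for Ccr2, −0.76 to 0.0198 for Ccrl2 and −0.29 to 0.13 for Cx3cr1, and the difference of Ackr2 from −0.00471 to 0.0621. The correlation of Ccr7 with the macrophage sum lost its call with a pseudocount of 0.1 (r = −0.582, adjusted permutation p = 0.0539) and with 13 libraries without the male-labelled 1 (−0.678, 0.0560). The causes of these changes were not tested. Ccr2 could not be fitted in the female-labelled libraries alone, with at least 10 counts in every library, or with the male-labelled 1 left out, because it fell under the filter, and Ackr4 could not with at least 10 counts in every library. Ccr7 and Ackr2 were at 0 reads in 4 and 6 libraries, which limits what could be detected for them.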
